A study of Homo sapiens with 18 samples.

Results

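The SF3A and SF3B complexes are the protein parts that complete the U2 small nuclear ribonucleoprotein (U2 snRNP) of the spliceosome, and the 10 genes that encode their subunits are described here: SF3A1, SF3A2 and SF3A3 for SF3A, and SF3B1, SF3B2, SF3B3, SF3B4, SF3B5, SF3B6 and PHF5A for SF3B. They were chosen by name as the known subunits, and they make up 10 of the 35044 genes of the deposited table. RNA-seq was done on 18 libraries, with 3 libraries for each of 6 conditions. The cells were HCC1937, a breast cancer cell line with a mutated BRCA1 gene, carrying either an empty vector (HCC1937-EV, genotype labelled WT) or a BRCA1 expression construct (HCC1937-OE-BRCA1, genotype labelled BRCA1 overexpression). Both were sampled at 0 h and after 12 h and 24 h of olaparib, an inhibitor of the DNA repair enzyme PARP1. The treatment field of the labels reads olaparib for every library, and the 0 h libraries are called untreated here because the study describes them so. HCC1937-OE-BRCA1 cells still hold the truncated endogenous BRCA1, and the sources do not say whether either line is 1 clone or whether the 3 libraries came from separate cultures. The p-values therefore measure the spread between these libraries, which may be technical.

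U2 snRNP recognises the branch point of an intron early in spliceosome assembly. SF3B holds the branch region: SF3B1 forms a ring of repeated helices that closes on the branch adenosine, PHF5A fills its centre, and drugs such as pladienolide B bind between them. SF3A links SF3B to the rest of the particle, and SF3B1 is the spliceosome gene most often mutated in human cancer. The study reported on splicing under PARP inhibition and on SF3B1 as a protein. The counts used here show how much transcript of each subunit was present, and they hold nothing on protein, protein structure or splicing itself.

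Total counts lay between 15081973 and 17571922 per library. Levels are given as CPM, read counts scaled to library size, after TMM normalization, which sets the libraries on a common scale. A gene was called changed at an adjusted p under 0.05 in edgeR's quasi-likelihood test over the 18335 genes tested, and the 10 subunit genes were all tested, with 677 to 14582 counts in a library. BRCA1 itself did not separate the untreated lines: it stood at 126, 111 and 117 CPM in HCC1937-EV and at 166, 122 and 127 CPM in HCC1937-OE-BRCA1, a log2 difference of 0.24 (SE 0.11, edgeR adjusted p = 0.0654). At 24 h the difference was 0.77 (SE 0.11, edgeR adjusted p = 3.17e-06). By 24 h mean BRCA1 went from 118 to 94.5 CPM in HCC1937-EV and from 138 to 161 CPM in HCC1937-OE-BRCA1, and neither change was called. The BRCA1 values with the GC and length trend removed, a step described below, are not given here. Reads of the truncated and the introduced BRCA1 are not told apart in these counts. The labelled cell type was checked against 10 breast epithelial markers, which include KRT8 and KRT18, keratins that do not mark basal cells in particular. In the HCC1937-EV libraries 5 of them (KRT5, KRT6A, KRT14, EPCAM and CDH3) stayed under 1 CPM throughout, and the 10 markers summed to 2665 to 3232 CPM. Most of that sum was KRT8 and KRT18, with means of 1867 and 866 CPM in the untreated libraries, where KRT17 stood at 3.19 CPM. In the HCC1937-OE-BRCA1 libraries each of the 10 reached 1 CPM, with a sum of 7416 to 10722 CPM. Of 10 markers of immune, endothelial, stromal and liver cells, 8 were in the table and CD3E and ALB were not analysed here. Their sum was 98.2 to 155 CPM in HCC1937-EV, most of it COL1A1, against 19.2 to 34.0 CPM in HCC1937-OE-BRCA1, where PECAM1 and COL1A1 made up most of it. PTPRC was at 0 in every HCC1937-EV library, and the part of these markers in the results below was not tested. The libraries labelled HCC1937-EV thus lack defining markers of basal breast epithelium, and the lines differed in 72.7% of all genes before treatment. Expression of BRCA1 and every other difference between the lines cannot be told apart.

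Most of the subunit promoters examined shared a feature that the choice of the genes did not use. RefSeq (GRCh38.p14) promoter sequences, running from 250 bases before to 50 bases after the start site, were at hand for 8 of the 10 genes, and SF3B3 and PHF5A were not in that table. The letters CCGGAAGT, the binding motif typical of ETS-family factors, were found on either strand in 6 of the 8, SF3A1, SF3A2, SF3A3, SF3B2, SF3B4 and SF3B6, against 4.95% of 27305 genes with a promoter in the table. They were not found in SF3B1 and SF3B5. The 6 genes that hold them include genes lower in untreated HCC1937-OE-BRCA1 (SF3B4 and SF3B6) and genes not called there. A link of the letters to the difference between the lines was not tested. The 4.95% covers genes whether or not expressed in these cells, and no share was taken over expressed genes or other spliceosome genes. A stretch of 30 bases before the start site is shown for each of the 6 genes, 5′ to 3′ on the gene's own strand, with the motif or its reverse complement in capitals, because these letters stood in most of the promoters of the complex and in few of all genes.
SF3A1, 49 bases before the start site (chr22:30356925-30356954, minus strand): aggggacggtcCCGGAAGTgcgccagtcgt
SF3A2, 9 bases before the start site (chr19:2236794-2236823, plus strand): agagggcccgtctcatttgccCCGGAAGTg
SF3A3, 69 bases before the start site (chr1:37990073-37990102, minus strand): agtcccggggcACTTCCGGcactcgcggaa
SF3B2, 53 bases before the start site (chr11:66052300-66052329, plus strand): atacggcgccaCCGGAAGTtccggcaagtg
SF3B4, 26 bases before the start site (chr1:149927811-149927840, minus strand): ccgtcttcgccCCGGAAGTggaagtcgtgc
SF3B6, 159 bases before the start site (chr2:24076467-24076496, minus strand): cggtacagagcCCGGAAGTgtcttggactc

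The motif of YY1, AAGATGGC, was found in 3 of the 8 promoters (SF3A1, SF3B2 and SF3B4) and in 3.52% of all genes. GGGCGG, the GC box, stood in 6 of the 8 (SF3A1, SF3A2, SF3A3, SF3B4, SF3B5 and SF3B6) and in 48.3% of all genes. The NRF1 motif, NF-Y (CCAATC), the TATA box (TATAAA) and the interferon-stimulated response element were found in 0 of the 8, against 1.52%, 17.9%, 13.99% and 4.38% of all genes. Each motif was searched on both strands, and a match is a description of the letters only.

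In untreated HCC1937-EV cells, the subunits' transcripts differed in level per kilobase of merged exon. SF3B6 was highest at 100.2 ± 4.6 CPM per kb (SD, n = 3), followed by SF3B5 at 89.8 ± 3.3 and SF3B4 at 87.7 ± 2.7, whose ranges overlapped with each other. PHF5A stood at 57.4 ± 3.7 CPM per kb. SF3B3 (42.6 ± 0.61), SF3B2 (41.5 ± 2.1) and SF3B1 (41.3 ± 1.9) overlapped with their neighbours in the order, and below them came SF3A3 at 37.2, SF3A1 at 34.4 and SF3A2 at 28.2 CPM per kb. The 3 SF3A genes therefore had the lowest means of the complex in these libraries, although the ranges of SF3A3 and SF3B2 overlapped. The order in untreated HCC1937-OE-BRCA1 differed at the top, where SF3B5 led at 172.6 CPM per kb and SF3B1 stood second at 79.9 CPM per kb. It differed lower down too, with SF3A3 (39.4) above SF3B2 (38.7), whose ranges overlapped. In HCC1937-EV at 24 h SF3B1 had the lowest mean, 31.5 CPM per kb, and its range overlapped with that of SF3A1. The low place of the SF3A genes was thus not shared by every condition. With the longest transcript as length, SF3B2 moved from sixth to second place in HCC1937-EV, so the order of that gene rests on the choice of length.

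The summed CPM of the 10 genes was 2246 ± 5.6 CPM (SD, n = 3) in untreated HCC1937-EV, 2117 ± 136 at 12 h and 2071 ± 44 at 24 h, and 2460.0 ± 38, 2396 ± 49 and 2543 ± 35 CPM in HCC1937-OE-BRCA1. Every HCC1937-OE-BRCA1 library, from 2357 to 2583 CPM, lay above every HCC1937-EV library, from 1963 to 2250 CPM. This separation rested on SF3B1, which stood at 379 ± 18 CPM in untreated HCC1937-EV and 732 ± 98 CPM in untreated HCC1937-OE-BRCA1. At each time the gap of SF3B1 alone was larger than that of the sums, and 6 of the 10 genes had a negative log2 difference. Sums of levels per kilobase lay closer together. The 3 SF3A genes together stood at 99.8 ± 2.0 CPM per kb (SD, n = 3) in untreated HCC1937-EV and 101 ± 4.3 in untreated HCC1937-OE-BRCA1, and the 6 condition means lay between 98.2 and 102 CPM per kb. The 7 SF3B genes summed to 460 ± 1.8 and 496 ± 58 CPM per kb in the same conditions. The make-up of SF3B was less even. SF3B1 held 8.97% ± 0.44 of the summed SF3B level in untreated HCC1937-EV, 7.27% ± 1.2 at 12 h and 6.78% ± 0.70 at 24 h. In HCC1937-OE-BRCA1 it held 16.4% ± 4.1, 16.6% ± 1.6 and 19.8% ± 1.7, and the lowest of those libraries, at 12.8%, was above the highest HCC1937-EV library at 9.40%.

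**Figure D1:**
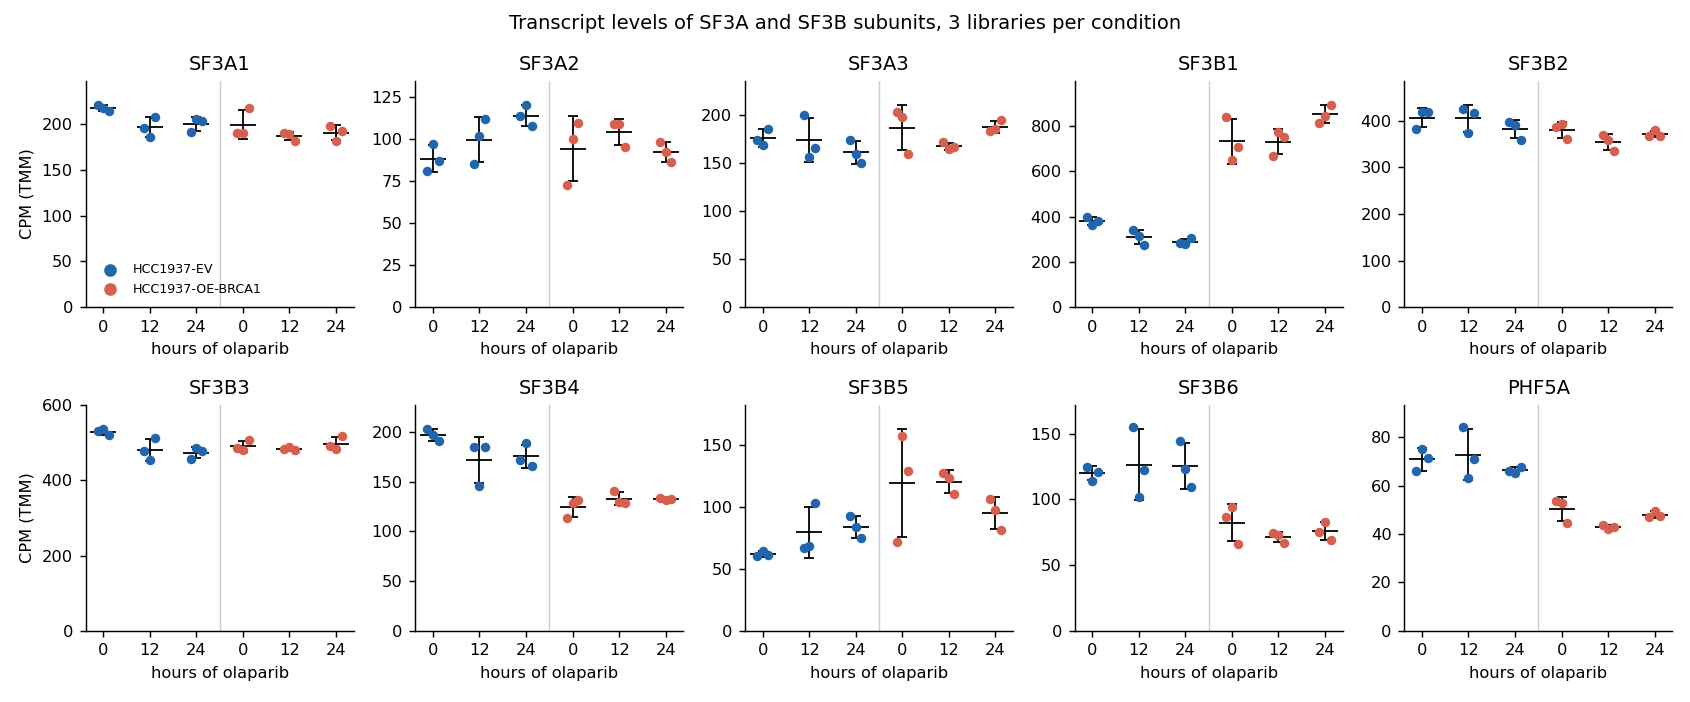
CPM of each of the 10 subunit genes (vertical axes from 0) by hours of olaparib in HCC1937-EV (blue) and HCC1937-OE-BRCA1 (orange); points are libraries, dashes means and bars SD over 3 libraries. SF3B1 separates the lines at every time, whereas SF3A1, SF3A3, SF3B2 and SF3B3 lie at about the same height in all 6 conditions.

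The first question was whether olaparib changed the transcripts of the complex. In HCC1937-EV, SF3B1, the ring-shaped branch-site subunit, was the single gene of the 10 that changed, and it fell at 24 h. It stood at 397, 361 and 378 CPM in the untreated libraries, at 341, 313 and 275 CPM at 12 h and at 283, 281 and 303 CPM at 24 h. All 3 libraries at 24 h were below all 3 untreated ones, as were those at 12 h. SF3B1 fell by 0.39 at 24 h on the log2 scale (SE 0.10, edgeR adjusted p = 0.0173), a 1.31-fold decrease, and the value at 12 h was −0.29 (SE 0.10, edgeR adjusted p = 0.181), which was not called. One of 10 subunits was thus called at 24 h, against 13.7% of all genes (5.12% lower). At 12 h edgeR called 0 of the 10, 1 had an unadjusted p under 0.05 and DESeq2 also called 0, where edgeR called 0.0436% of all genes.

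The fall of SF3B1 moved together with a property of the libraries. Within each line, the abundance of genes leaned with their GC content to a different degree from library to library. The rank correlation of a gene's deviation with its GC content ran from −0.59 to −0.23 in the 3 untreated HCC1937-EV libraries and from 0.28 to 0.62 at 24 h. It ran from −0.59 to 0.55 in untreated HCC1937-OE-BRCA1 and from −0.45 to −0.29 at 24 h. The like correlation with gene length was 0.29 in each untreated HCC1937-EV library and −0.36, −0.24 and 0.01 at 24 h. In HCC1937-OE-BRCA1 it ran from −0.36 to 0.19 untreated and from 0.02 to 0.26 at 24 h. SF3B1 transcripts have the lowest GC content of the complex, at 39.7%, which exceeds that of 11.5% of genes. The merged exons of SF3B1 span 9164 bases. The share of counts from mitochondrial DNA moved too, from 6.71 to 7.93% in untreated HCC1937-EV to 5.41 to 5.53% at 24 h. With the trend on GC content and length removed from each library, the value for SF3B1 in HCC1937-EV at 24 h was −0.09 (edgeR adjusted p = 0.402). GC trend, length trend and treatment moved together here. Both trends were removed at once, so their parts were not told apart, and the part of the mitochondrial share was not tested. The call was also lost without untreated replicate 1 (edgeR adjusted p = 0.0848), 24 h replicate 1 (0.0693) or 24 h replicate 2 (0.0758).

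The other 9 subunits gave no call in HCC1937-EV in edgeR's fit of all libraries. DESeq2 also called SF3A2 (adjusted p = 0.0361) and SF3B3 (−0.16, adjusted p = 0.0213) at 24 h, and the compared libraries alone in edgeR also gave SF3A2 (0.00343) and SF3B5 (0.00124). Those fits called 26.2% and 34.9% of all genes, so 3 of 10 subunits was near the background in both. SF3A2, a zinc-finger protein that joins SF3A to U2, has the highest GC content of the complex (63.6%) and stood at 81.4, 97.1 and 87.0 CPM untreated and at 114, 120 and 108 CPM at 24 h. Its libraries did not overlap, with a log2 value of 0.36 (SE 0.13, edgeR adjusted p = 0.0621). SF3B5, a small subunit on the outside of SF3B (GC content 56.6%), gave 0.43 (SE 0.20, edgeR adjusted p = 0.148), from 60.4, 64.8 and 61.4 CPM to 92.6, 84.3 and 74.8 CPM. After removal of the GC and length trend these values were −0.07 and 0.15. SF3B4, the RNA-binding subunit next to the intron upstream of the branch point, gave −0.17 as fitted and −0.36 after that removal, where it was called (edgeR adjusted p = 0.00258), together with SF3A1 at −0.19 (0.0291). In that fit 14.1% of all genes were called. At 12 h SF3B4 was the 1 subunit called in that fit (−0.33), against 0.83% of all genes. The log2 values of SF3A3, SF3B2, SF3B3, SF3B6 and PHF5A at 24 h lay between −0.16 and 0.07, and the widest of their 95% intervals ran from −0.23 to 0.36.

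In HCC1937-OE-BRCA1, edgeR called none of the 10 subunits at 12 h or at 24 h, against 2.31% and 8.26% of all genes. DESeq2 called 0 at each time, and 1 gene had an unadjusted p under 0.05 at each. SF3B1 stood at 841, 650.1 and 705 CPM untreated, at 669, 773 and 751 CPM at 12 h and at 815, 846 and 894 CPM at 24 h. The untreated range covered the 12 h values, and 2 of the 3 libraries at 24 h lay above it. The log2 values were −0.0023 at 12 h (SE 0.10, edgeR adjusted p = 1) and 0.22 at 24 h (SE 0.10, edgeR adjusted p = 0.194), with a 95% interval from 0.01 to 0.43 at 24 h. Untreated replicate 1 had a GC trend of −0.59, against 0.30 and 0.55 in replicates 2 and 3, and the part of that trend was not tested. This replicate stood apart from the other 2 in several subunits. SF3B5 was at 72.0 CPM against 158 and 129 CPM, and SF3A2 was at 72.8 CPM against 100.3 and 109.9 CPM. Without untreated replicate 1, SF3B1 was called higher and SF3B5 lower at 24 h, where 17.7% of all genes were called. The SF3B5 value moved from −0.33 to −0.59 (edgeR adjusted p = 0.0110). With the GC and length trend removed, SF3A1 was called lower at 12 h (−0.19, edgeR adjusted p = 0.0471), against 6.8% of all genes. SF3B4 was steady after treatment, at 134, 132 and 133 CPM at 24 h, with a log2 value of 0.09 (SE 0.10). For the comparison of 24 h with 12 h, edgeR and DESeq2 both called 0 of the 10 in either line, with 0 unadjusted p under 0.05 in HCC1937-EV and 1 in HCC1937-OE-BRCA1, against 0.18% and 1.65% of all genes.

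**Figure D2:**
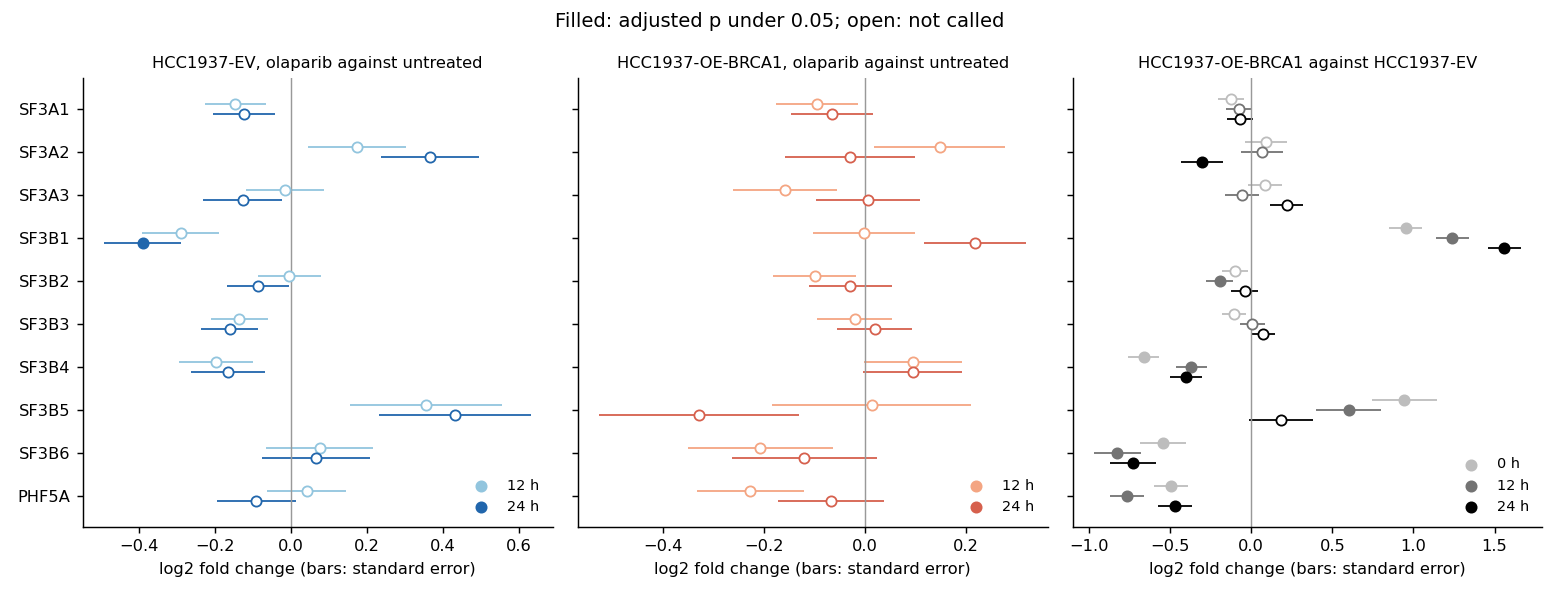
Log2 fold changes of the 10 subunit genes (rows) with standard errors, for olaparib against untreated in each line and for HCC1937-OE-BRCA1 against HCC1937-EV at each time; filled points have an edgeR adjusted p under 0.05. Of the treatment values SF3B1 in HCC1937-EV at 24 h is filled, while in the comparison of lines SF3B1 lies to the right at 0.95, 1.24 and 1.56 and SF3B4, SF3B6 and PHF5A lie to the left.

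Whether the responses differed between the lines was tested directly, as the difference of the treatment values. SF3B1 was called at 24 h, where its response was higher in HCC1937-OE-BRCA1 by 0.61 on the log2 scale (SE 0.14, edgeR adjusted p = 0.00676). That made 1 of 10 subunits, against 19.4% of all genes. It was called without any 1 of the 12 libraries, with values from 0.53 to 0.72. With the GC and length trend removed it was 0.12 (edgeR adjusted p = 0.402), and the median GC trend over 3 libraries went from −0.44 to 0.43 in HCC1937-EV and from 0.30 to −0.40 in HCC1937-OE-BRCA1. SF3B5 had the largest value in the other direction, −0.76 (SE 0.28, edgeR adjusted p = 0.0627), which became −1.02 (0.000987) without untreated HCC1937-OE-BRCA1 replicate 1 and was called by DESeq2 (−0.77, adjusted p = 0.0421), which called 27.4% of all genes. SF3B4 gave 0.26 as fitted and 0.48 (edgeR adjusted p = 0.00281) with the trend removed, where 18.3% of all genes were called. At 12 h edgeR and DESeq2 called 0 of the 10, 1 had an unadjusted p under 0.05, and edgeR called 0.518% of all genes. With the trend removed SF3B4 was called at 12 h (0.38, edgeR adjusted p = 0.0461), against 3.7% of all genes.

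**Figure D3:**
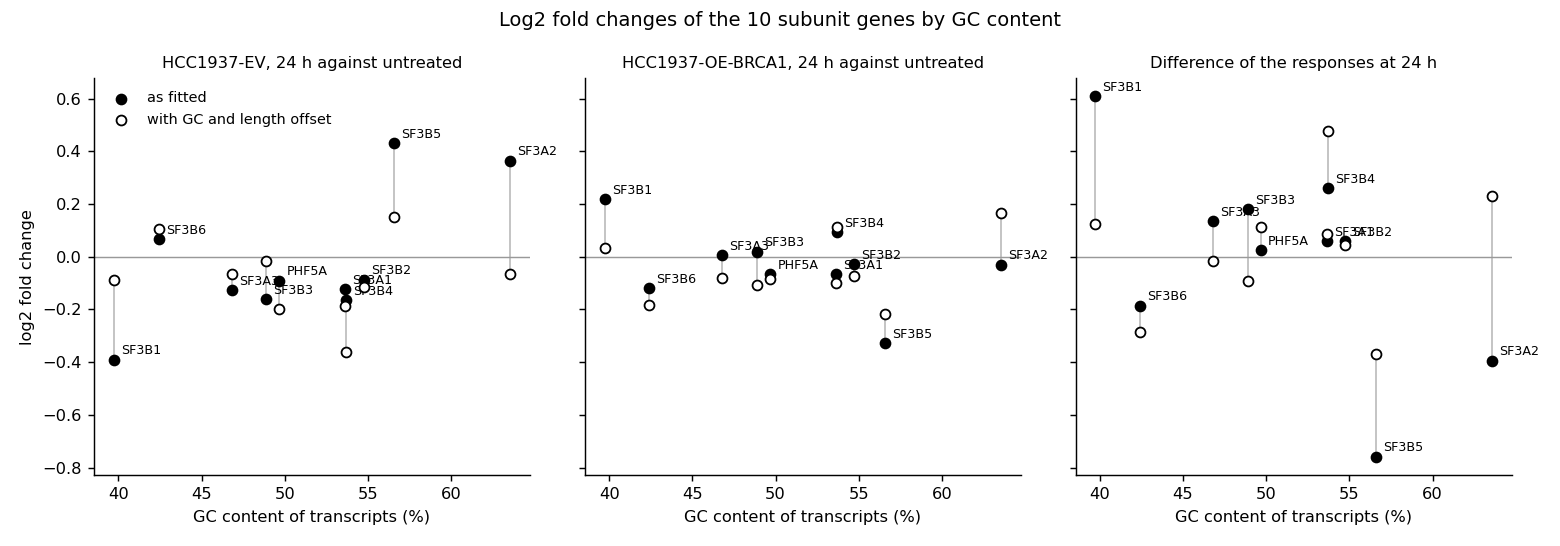
Log2 fold changes of the 10 subunit genes (vertical axis) against the GC content of their transcripts in percent, for 24 h of olaparib in each line and for the difference of the 2 responses; filled points are as fitted and open points have the GC and length trend removed. SF3B1, at the left end, moves from −0.39 to −0.09 in HCC1937-EV and from 0.61 to 0.12 in the difference, whereas SF3B4 moves away from 0 in both.

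The second question was how the lines differed. Before treatment 5 of the 10 subunits differed between HCC1937-OE-BRCA1 and HCC1937-EV, 2 higher and 3 lower, against 39.4% of all genes higher and 33.3% lower. All 5 belong to SF3B, and none of the 3 SF3A genes was called in this fit. With the GC and length trend removed SF3A2 was called lower at 0 h (−0.19, edgeR adjusted p = 0.0132), where 76.4% of all genes were called. In these bulk libraries, more transcript per cell and a different mix of cells cannot be told apart.

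SF3B1 was higher in HCC1937-OE-BRCA1 in every library at every time. The log2 difference was 0.95 at 0 h (SE 0.10, edgeR adjusted p = 3.68e-08), 1.24 at 12 h (SE 0.10, 6.28e-10) and 1.56 at 24 h (SE 0.10, 1.60e-11), or 1.93-fold, 2.36-fold and 2.95-fold. With the GC and length trend removed within each line the values were 1.18, 1.30 and 1.30. SF3B1 was thus called at each time by either fit, where the fit without the trend called 76.4%, 77% and 78.2% of all genes at 0 h, 12 h and 24 h, and the spread of its 3 values was smaller with the trend removed. For scale, 8448 genes had a mean of at least 10 CPM in each line. Their median absolute log2 difference as fitted was 0.59, 0.57 and 0.59 at the 3 times. The fitted SF3B1 values lay above those of 86.5%, 92.3% and 95.4% of these genes.

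SF3B4, the subunit that contacts the pre-mRNA upstream of the branch point, was lower in HCC1937-OE-BRCA1. It stood at 203, 197 and 191 CPM in untreated HCC1937-EV and at 113, 129 and 132 CPM in untreated HCC1937-OE-BRCA1, without overlap. The log2 difference was −0.66 (SE 0.10, edgeR adjusted p = 3.44e-06) at 0 h, −0.37 (0.00194) at 12 h and −0.40 (0.000873) at 24 h. SF3B6, the small protein that sits near the branch adenosine, stood at 125, 114 and 121 CPM against 86.8, 93.9 and 66.3 CPM, with log2 differences of −0.54 (SE 0.14, edgeR adjusted p = 0.00187), −0.82 and −0.73 at 0 h, 12 h and 24 h. PHF5A, the zinc-finger protein inside the SF3B1 ring, stood at 65.9, 75.03 and 71.7 CPM against 53.6, 52.7 and 44.5 CPM. Its log2 differences were −0.50 (SE 0.11, edgeR adjusted p = 0.000254), −0.76 and −0.47. These 3 genes were called at each of the 3 times, without any 1 of the 6 libraries compared and with the GC and length trend removed. Their sizes were ordinary for this pair of lines. At 0 h SF3B4, SF3B6 and PHF5A lay above 24.0%, 28.3% and 30.2% of the 8448 genes expressed in both lines. The median absolute difference of those genes, 0.59, was larger than that of SF3B6 and PHF5A.

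SF3B5 was higher in untreated HCC1937-OE-BRCA1, by 0.94 (SE 0.20, edgeR adjusted p = 0.000267), although the 72.0 CPM of replicate 1 lay near the HCC1937-EV libraries, which held 60.4 to 64.8 CPM. Without that replicate the difference was larger, at 1.21. At 12 h it was 0.60 (SE 0.20, edgeR adjusted p = 0.0103), a call that was lost without HCC1937-EV 12 h replicate 1 (0.0527) or replicate 2 (0.0551). At 24 h it was 0.18 (0.411), when HCC1937-EV stood at 92.6, 84.3 and 74.8 CPM and HCC1937-OE-BRCA1 at 106, 98.0 and 81.6 CPM. With the GC and length trend removed the 24 h value was 0.40 (edgeR adjusted p = 0.00912).

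SF3B2 and SF3B3, the large scaffold subunits, differed little between the untreated lines. SF3B3 stood at 530.2, 535 and 521 CPM in HCC1937-EV and at 485, 480.0 and 508 CPM in HCC1937-OE-BRCA1, a log2 difference of −0.11 (SE 0.07, edgeR adjusted p = 0.201, 95% interval −0.26 to 0.05). SF3B2 gave −0.10 (0.286) at 0 h and −0.19 (SE 0.08, edgeR adjusted p = 0.0392) at 12 h, where 6 of the 10 subunits were called, against 72.9% of all genes. The SF3B2 call was lost with DESeq2's size factors (0.106), with DESeq2 itself (0.0597), and without HCC1937-EV 12 h replicate 1 (0.120) or 3 (0.0940) or HCC1937-OE-BRCA1 12 h replicate 2 (0.0685) or 3 (0.150). It was also lost with no filter (0.131), with at least 10 counts in every library (0.162) and with the compared libraries alone (0.145). With the GC and length trend removed it was kept, at −0.30 (edgeR adjusted p = 0.00535), where 77% of all genes were called.

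Among the SF3A genes, SF3A1, the subunit that contacts U1 and U2 through its RNA- and protein-binding domains, stood at 221, 218 and 215 CPM in untreated HCC1937-EV and at 190.3, 191 and 218 CPM in untreated HCC1937-OE-BRCA1. The log2 difference was −0.13 (SE 0.08, edgeR adjusted p = 0.167). Without untreated HCC1937-OE-BRCA1 replicate 3 SF3A1 was called, at −0.19 (edgeR adjusted p = 0.0485), where 68.9% of all genes were called. With the GC and length trend removed it was called at 12 h (−0.13, edgeR adjusted p = 0.0355), against 77% of all genes. SF3A3 gave 0.09 at 0 h, −0.06 at 12 h and 0.22 at 24 h (edgeR adjusted p from 0.0611 to 0.634). The 24 h value was called with DESeq2's size factors (0.0330), with DESeq2 itself (0.0303), with at least 10 counts in every library (0.0180), with the compared libraries alone (0.00710) and without HCC1937-EV 24 h replicate 1 (0.0414), settings in which 58.4% to 79.7% of all genes were called. SF3A2 was called lower in HCC1937-OE-BRCA1 at 24 h, by −0.30 (SE 0.13, edgeR adjusted p = 0.0400), where 5 of 10 subunits were called against 73.9% of all genes. This call turned to 0.04 (0.569) with the GC and length trend removed, and it was lost with DESeq2's size factors (0.0656) and without HCC1937-EV 24 h replicate 1 (0.0713) or 2 (0.127) or HCC1937-OE-BRCA1 24 h replicate 2 (0.0855) or 3 (0.141). Exons of SF3A1, SF3A2 and SF3B2 overlap genes on the opposite strand (CCDC157, PLEKHJ1 and AP006287.2), and whether the counting used strand is not given in the sources used here. SF3A3 has pseudogenes SF3A3P1 and SF3A3P2 in the table, with mean counts of 11.3 and 4.22, and how reads that match both a pseudogene and SF3A3 were counted is not given in the sources used here.

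The genes around the members were compared between the lines as well, a comparison chosen after the values were seen. For each subunit gene the 10 nearest genes on either side with at least 1 CPM in both lines were taken. Of the 20 neighbours of SF3B1 on chromosome 2, 13 were higher in untreated HCC1937-OE-BRCA1 and 1 was lower, with a median log2 difference of 0.43 against −0.04 over all such genes. The 4 neighbours within 0.122 Mb, COQ10B, HSPD1, HSPE1 and MOB4, were higher by 2.38, 0.35, 2.44 and 1.96. Around SF3B5 on chromosome 6, 13 neighbours were higher and 4 lower (median 0.59). Around SF3B4 on chromosome 1, 5 were higher and 11 lower (median −0.43), and around SF3B6, at the other end of chromosome 2, 5 were higher and 10 lower (median −0.35). Around PHF5A, on chromosome 22, 3 were higher and 8 lower (median −0.07). In both directions together 14 to 17 of 20 neighbours were called around SF3B1, SF3B5, SF3B4 and SF3B6, near the 72.7% called over all genes, and 11 of 20 around PHF5A. A raised neighbourhood did not always go with a raised member: around SF3B2 14 of 20 neighbours were higher (median 0.69), and around SF3B3 11 were (median 0.42), while both of these subunits gave no call. Copy number was not measured in these libraries.

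**Figure D4:**
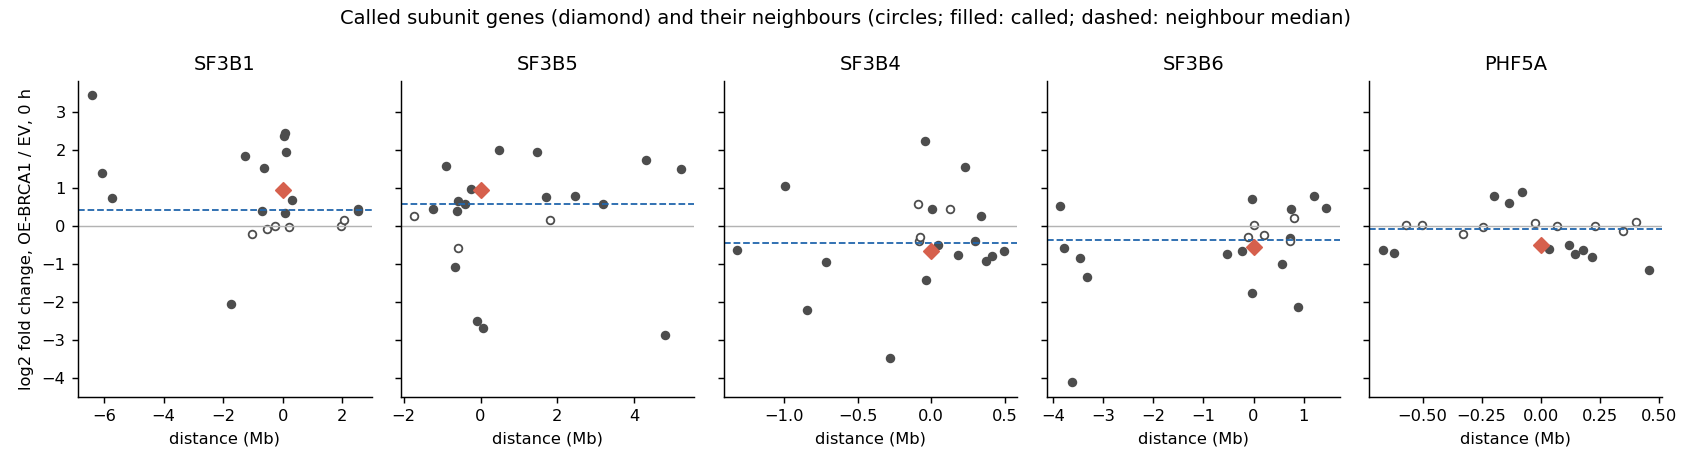
Log2 difference of untreated HCC1937-OE-BRCA1 against HCC1937-EV (vertical axis) for the 5 subunit genes called at 0 h (orange diamonds) and their 20 nearest expressed neighbours (circles, filled where called), by distance in Mb; the dashed line is the neighbours' median. The medians for SF3B1 (0.43) and SF3B5 (0.59) lie above 0 and those for SF3B4 (−0.43) and SF3B6 (−0.35) below it, on the side of the subunit gene itself.

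The genes whose levels were most like those of SF3B1 across the 18 libraries were described by Pearson's r of log2 CPM after the mean of each line was taken off, over 8448 genes. They were ZNF33A (0.981), NORAD (0.980), ATF6 (0.973), TPR (0.970) and IPO7 (0.970). All 5 have a GC content between 39.6% and 41.6%, close to that of SF3B1. Among the subunits, SF3B3 (0.53) and SF3A3 (0.43) were most like SF3B1, and SF3B5 (−0.88) and SF3A2 (−0.81), the members of highest GC content, ran the other way. The points share library preparation and depth, so these values describe the libraries and carry no test.

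PARP1 and RNA polymerase II, which the study ties to SF3B1, and NCOR1, in which it tested a splicing event, were measured beside SF3B1. PARP1, the target of olaparib, was lower in untreated HCC1937-OE-BRCA1 (448 ± 7.7 against 612 ± 13 CPM, SD, n = 3), with a log2 difference of −0.45 (SE 0.07, edgeR adjusted p = 1.64e-05), and olaparib gave no call in either line. POLR2A, the largest subunit of RNA polymerase II, had one library at 24 h in HCC1937-EV at 235 CPM against 126 and 128 CPM, and no comparison of it was called. NCOR1, a corepressor, fell in HCC1937-EV at 24 h by 0.50 (SE 0.16, edgeR adjusted p = 0.0379), from 261 ± 3.0 to 184 ± 29 CPM. Its value with the GC and length trend removed is not given here. Between the lines NCOR1 was lower in HCC1937-OE-BRCA1, by −1.21 at 0 h (SE 0.16, edgeR adjusted p = 6.98e-07). At 12 h and 24 h that difference was −0.69 and −0.64 (edgeR adjusted p = 0.000497 and 0.000985).

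The rest of the spliceosome was covered by 98 genes in 6 lists: U2 core and SF3-associated factors, the Sm ring, U1, the U4/U6.U5 tri-snRNP, the minor U11/U12 spliceosome, and activation and catalytic factors. In HCC1937-EV 6 of the 98 rose and 6 fell at 24 h, with a median log2 value of −0.01 against 0 for all genes, beside the backgrounds of 8.62% higher and 5.12% lower. Among U2-associated factors U2SURP, an SF3-associated protein with an SR-like domain, fell by 0.62, and DHX15, a helicase of spliceosome disassembly, fell by 0.24 (edgeR adjusted p = 0.0276 and 0.0444). Of the Sm ring, SNRPD2 rose by 0.55 and SNRPD3 fell by 0.38. SNRNP70, a core U1 protein, rose by 0.51 and LUC7L2 by 0.32. LSM4 rose by 0.62, PRPF3 fell by 0.34, the minor-spliceosome proteins SNRNP25 and RNPC3 moved by 0.65 and −0.70, and AQR, a helicase next to SF3B, fell by 0.51. Of these 11 named genes, U2SURP, DHX15, RNPC3 and AQR, which fell, have GC contents of 37.8% to 39.6%, and SNRPD2, SNRNP70, LSM4 and SNRNP25, which rose, of 54.4% to 62.3%. LUC7L2 (44.2%), PRPF3 (47.5%) and SNRPD3 (52.0%) lie between.

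In HCC1937-OE-BRCA1 1 of the 98 rose and 2 fell at 24 h, against 4.71% and 3.55% of all genes. SNRPD3 fell by 0.32 (edgeR adjusted p = 0.0236), as it had in HCC1937-EV, and TXNL4A, a U5 protein, fell by 0.51 (0.0195). The riser, CDK11A, a kinase that phosphorylates SF3B1, had 1 count over 3 untreated libraries and 12 over 3 at 24 h, and it shares reads with its near-identical copy CDK11B, so its value is uncertain. At 12 h edgeR called 0 of the 98 in each line.

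Between the untreated lines 24 of the 98 were higher in HCC1937-OE-BRCA1 and 30 lower, and the numbers were 17 and 45 at 12 h and 21 and 41 at 24 h. Of all genes 38.8% were higher and 34.1% lower at 12 h, and 39.9% and 34% at 24 h. The median log2 differences were −0.09, −0.27 and −0.10, against 0.11, 0.08 and 0.12 for all genes tested. For the 8448 genes with a mean of at least 10 CPM in each line, the medians were −0.04, −0.10 and −0.09. Of those genes 34.3%, 32.1% and 32.5% were higher and 38.6%, 40.8% and 41.4% lower at 0 h, 12 h and 24 h. SNRNP200, the U5 helicase that unwinds U4 from U6, was lower by −1.57 at 0 h, with 323 against 959 CPM. U2SURP was lower by −1.41, SNRNP48 by −1.41, CWC27 by −1.56, PRPF4B by −1.44, LUC7L3 by −0.87, RNPC3 by −0.88 and LUC7L by −0.51. LSM6 and SNRPB were higher, by 1.74 and 0.73. SNRPN, an Sm protein of an imprinted locus, was listed at 0 in all 9 HCC1937-EV libraries and had 196 to 242 counts over the 3 libraries of each HCC1937-OE-BRCA1 condition. CDK11A was lower, with 77 counts over the 3 untreated HCC1937-EV libraries. At 12 h and 24 h the rule for named genes added SNRPA1 (−1.48 and −1.19), TXNL4A (−1.38 and −1.73), SNRPF, LUC7L2, ZMAT5 and CWC15 at 12 h (−0.55, −0.58, −0.76 and −1.39), and SNRPD2, SNRNP70, LSM4, SNRNP25 and RNF113A at 24 h (−0.83, −0.69, −1.32, −1.28 and −1.27). Each of these 11 genes was lower in HCC1937-OE-BRCA1. The difference of the responses at 24 h was called higher in 7 and lower in 15 of the 98, against 8.16% and 11.2% of all genes.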

How the data were processed

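RNA was extracted with TRIzol and libraries were made with the NEBNext Ultra II kit, per the labels. The deposited values are whole-number read counts for each gene, not normalized by the authors, and the submitters' processing notes name HISAT2, featureCounts, DESeq2 and GRCh38 (hg38); versions, annotation and strand setting are not given in the sources used here. The 18 tables of single libraries held the same values as the joint table. Of 35044 gene identifiers, 99.8% matched a symbol, and lengths, GC content and overlaps came from GENCODE release 29.

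Counts were tested with edgeR 4.0.16 (R 4.3.3): TMM, filterByExpr (18335 genes), 1 mean per condition over 18 libraries, quasi-likelihood test, Benjamini-Hochberg adjustment over all genes, 11 comparisons. With 3 libraries against 3, an exact permutation test of 1 gene cannot go below p = 0.1, so none was used. CPM per kb divides by merged exonic length. For the GC and length trend, a library's distance from its line's average was fitted smoothly on GC content and length (mgcv 1.9.3) and used as an offset over 18076 genes; it leaves differences between the lines as a whole in place. DESeq2 1.42.0 was an alternative. The script was tested on simulated data. Replicates differed by more than sampling noise (chi-square divided by its degrees of freedom was 3.07 to 37.7), so each library counted once.

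The members, gene lists and tests were chosen with earlier results of these data known. Named genes were the 10 members, BRCA1, PARP1, POLR2A, NCOR1, up to 2 called genes with the largest change and no overlap between groups from each of 6 spliceosome lists per comparison, the 5 genes most like SF3B1, and genes that overlap or copy a member; neighbours named by position were chosen after their values were seen. Alternatives were other scaling, DESeq2, other filters, the compared groups alone, the replicate block, the GC and length offset, a minimum log2 fold change of 0.5 and leaving out each library.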

Additional observations from a re-analysis of the deposited data

Results flagged for a closer look

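The response of SF3B1 to 24 h of olaparib differed between the lines, and this difference was itself tested: it was 0.61 on the log2 scale (SE 0.14, edgeR adjusted p = 0.00676), with SF3B1 lower after treatment in HCC1937-EV (−0.39) and at 0.22, not called, in HCC1937-OE-BRCA1. All 3 HCC1937-EV libraries at 24 h were below the 3 untreated ones. With the GC and length trend removed from each library the difference was 0.12 (edgeR adjusted p = 0.402).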

How the results depend on the processing

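The calls of SF3B1, SF3B4, SF3B6 and PHF5A between the lines held under every alternative that keeps the same threshold. A minimum log2 fold change of 0.5 left 2 subunits called between the lines at 24 h, against 65.5% of all genes. That minimum also dropped PHF5A at 0 h (−0.495) and SF3B2 and SF3B4 at 12 h (−0.19 and −0.37). The number of subunits called at 24 h in HCC1937-EV, 1 as reported, was 3 with DESeq2, with no filter on low counts and with the compared groups alone (26.2%, 8.77% and 34.9% of all genes called), 2 with the GC and length offset with or without the block (14.1% without it), 0 with the minimum fold change, and 0 to 1 when a library was left out. In HCC1937-OE-BRCA1 it was 1 at 12 h with the GC and length offset, 1 at 24 h with no filter (6.10% of all genes), 0 to 2 at 24 h when a library was left out (2 without untreated replicate 1), and 2 for 24 h against 12 h with the compared groups alone, which called 19.6% of all genes. In HCC1937-EV at 12 h, and for the difference of the responses at 12 h, it was 1 with the GC and length offset, with or without the block. For the difference of the responses at 24 h it was 2 with DESeq2 and with no filter (27.4% and 10.6% of all genes), and 1 to 3 when a library was left out (3 without untreated HCC1937-OE-BRCA1 replicate 1, where 29.2% of all genes were called). SF3A2 turned direction between the lines with the GC and length offset, to −0.19 at 0 h (edgeR adjusted p = 0.0132) and 0.042 at 24 h, and to −0.19 (0.0151) and 0.042 with the block added. The cause of these changes was not tested. With the longest transcript as length, the highest level in untreated HCC1937-EV was 3.68 times the lowest, against 3.55 with merged exons. Replicate numbers did not pair the samples (correlations of same-numbered deviations from −0.23 to 0.30, over 0.1 in every pair for 0 of 15 pairs of conditions), and with the replicate block the number called was 1 in HCC1937-EV at 24 h and 5, 6 and 5 between the lines, with no call changed. Signs of uncalled values changed in 76 results over these settings and in 51 when a library was left out. Standard errors were about 0.20 for SF3B5 and 0.10 for PHF5A, which has fewer counts, and the cause of the spread of SF3B5 was not tested.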
